A study of Mus musculus with 4 samples.

Results

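The astrocyte genes described here are 33 genes in which this glial cell type is rich, listed by name with earlier results of these data known. They were read from probe sets whose only symbol in the platform annotation is 1 of the 33, and each gene is represented by its probe set with the highest mean log2 value over the 4 arrays. All 33 were found among 18193 genes with a probe set of their own symbol, with Ppap2b listed under its current symbol, Plpp3. Between them they have 72 such probe sets.

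The arrays hold RNA of the midbrain of adult mice, 6 to 12 weeks old and of both sexes, all from the Slc6a3 JD1640 TRAP line. In this line a BAC, a large genomic construct, carrying the dopamine transporter gene Slc6a3 drives a ribosomal protein, RPL10A, fused to eGFP, and the transgene was injected into FVB oocytes and bred to C57BL6/j mice. Translating ribosome affinity purification (TRAP) pulls down the tagged ribosomes with antibody to GFP, and the RNA that comes with them was measured on 2 arrays, numbered 2 and 4. The RNA of the whole midbrain dissection, labelled unbound (total) RNA and called input here, was measured on 2 arrays, numbered 1 and 2. Each array stands for a pool of 5 mice, and all mice carried the transgene.

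Astrocytes take up the glutamate and potassium that neurons release, convert glutamate to glutamine, hold water and bicarbonate in balance at their endfeet on blood vessels, and are joined to each other by gap junctions. They also secrete apolipoproteins and other carriers. They do not transcribe the dopamine transporter, so their transcripts serve in a TRAP preparation from dopamine neurons as a measure of RNA from outside the tagged cells. Several of the 33 are not restricted to astrocytes: Clu, Cst3, Sparcl1, Mt3 and Aldoc are also transcribed in neurons, Apoe and Cst3 in microglia, Glul in oligodendrocytes and Id3 in vessels.

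Levels are given in arbitrary expression units, 2 raised to the deposited log2 value. A gene counts as above background where both arrays of at least 1 fraction reach 50 units, which 10014 genes and all 33 astrocyte genes did. TRAP was compared with input with limma over all 45037 probe sets that are not controls, and a gene passed where its Benjamini-Hochberg adjusted p was under 0.05. Differences are TRAP minus input in log2 units with their standard error (SE, 2 arrays a fraction), and intervals are 95% intervals from the same fit.

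The 14 dopamine neuron markers used as a check of the labels were all higher in TRAP, with a median difference of 4.40. The median difference over all genes above background was 0.44, so a gene at 0 lies below the middle of the arrays. Between the 3′ and 5′ control probe sets of Gapdh, a measure of transcript integrity, the log2 gap was 4.96 and 3.52 in TRAP and 6.81 and 6.39 in input, and its part in the differences below was not tested. Both fractions came from mice of the same line, and in bulk RNA the cells that a transcript came from cannot be told apart.

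Astrocyte genes were mostly lower in TRAP than in input. Of the 33 genes, 30 had a negative difference and 3 a positive one, and the median was -1.37, a level 2.58 times higher in input (-1.36 with the 3 genes under 50 units on both TRAP arrays at their bound). Both TRAP arrays lay below both input arrays for 27 genes, above them for 3 and overlapped with them for 3. Among all genes above background 23.6% lay below without overlap, 52.3% lay above and 34.2% had a negative difference. The summed level of the 33 genes was 95796 and 64416 units in TRAP (replicates 2 and 4) and 117008 and 132430 in input (replicates 1 and 2). As a share of the summed level of all genes above background this is 0.513% and 0.335% in TRAP and 0.847% and 0.989% in input.

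By the test, 3 genes fell, Slc1a3, Slc7a10 and Sox9, and 0 rose. This is 3 of 33, beside 6.87% of all genes above background that fell, so the count alone does not set the astrocyte genes apart. At an unadjusted p under 0.05 from limma, 7 were lower and 0 higher, beside 10.8% and 27.8% of all genes above background. When limma was fitted over probe sets above background alone, 8 fell, beside 9.17% of all genes. Each of the 3 missed the threshold when any 1 of the 4 arrays was left out and when values under 50 units were raised to 50. Their adjusted p ran from 0.00866 to 0.130 for Slc1a3, from 0.0143 to 0.188 for Slc7a10 and from 0.00743 to 0.116 for Sox9 over 11 alternative settings of the limma fit.

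**Figure D1:**
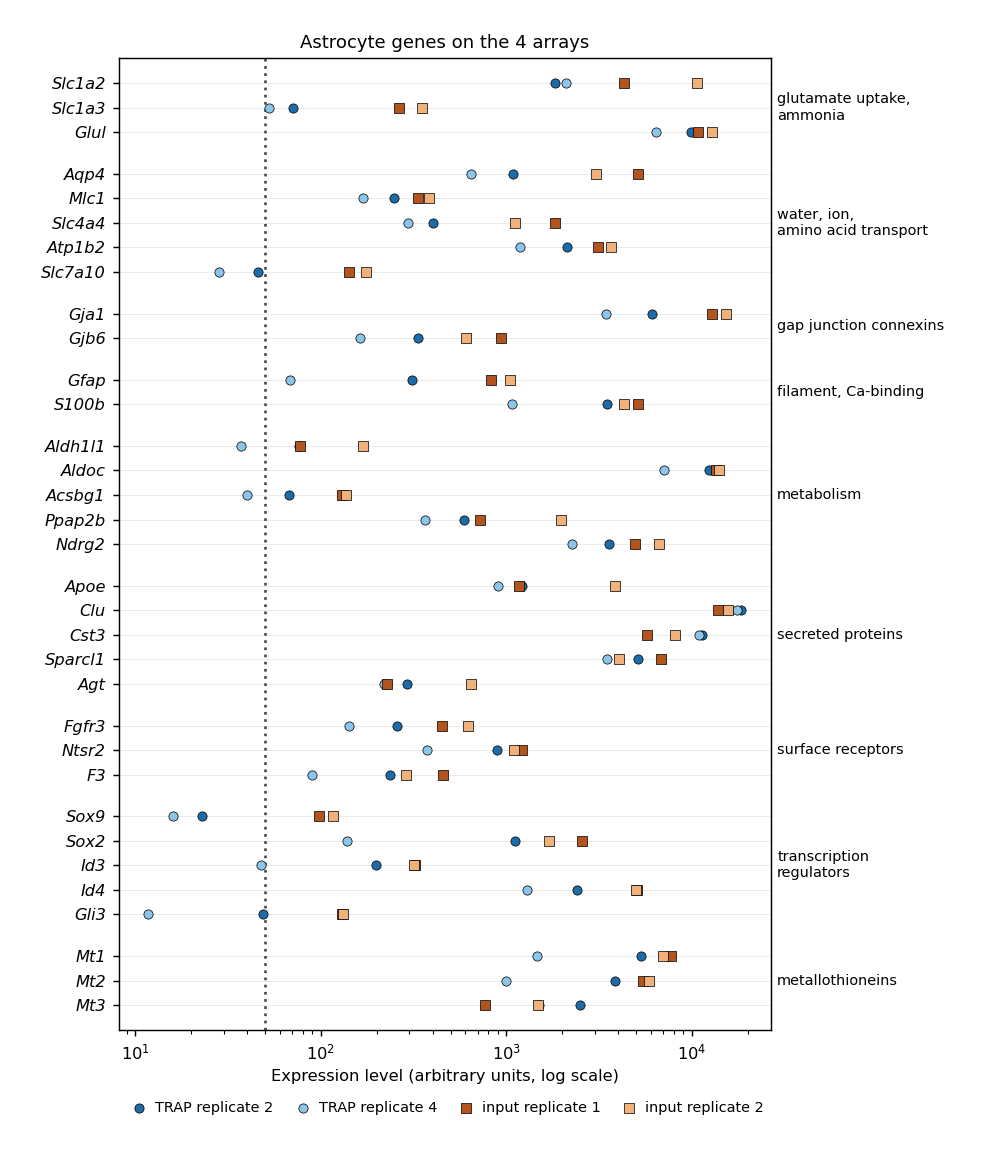
Expression level (arbitrary units, log scale) of the 33 astrocyte genes on each array, grouped by role. TRAP arrays are drawn as circles and input arrays as squares, and the dotted line marks 50 units; in 27 genes both circles lie left of both squares, and in Clu, Cst3 and Mt3 both lie to their right.

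Slc1a3 (GLAST) and Slc1a2 (GLT-1) are the transporters that clear glutamate from the synapse, and Glul, glutamine synthetase, condenses it with ammonia. Slc1a3 (probe set 1452031_at) was at 70.7 and 52.5 units on TRAP replicates 2 and 4 and at 263 and 349 on input replicates 1 and 2. It fell 4.98-fold (difference -2.31, SE 0.28, adjusted p = 0.0237 from limma), and the TRAP arrays were close to the background level. Its other 2 probe sets above background were under 50 units on both TRAP arrays and did not pass, with input at least 6.36-fold and 2.69-fold above TRAP.

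Slc1a2 was at 1832 and 2089 units in TRAP and at 4295 and 10661 in input. The fractions did not overlap, but the input arrays stood 2.48-fold apart and the difference of -1.79 (SE 0.62, interval -4.12 to 0.54) did not pass. It was the only one of the 33 genes that was higher on TRAP replicate 4 than on replicate 2. Glul, among the brightest of the 33, was at 9865 and 6390 units in TRAP and at 10821 and 12857 in input, a difference of -0.57 (SE 0.31).

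Aqp4, the water channel of astrocyte endfeet, was at 1089 and 642 units in TRAP and at 5109 and 3034 in input. Slc4a4, which carries sodium and bicarbonate together, was at 403 and 294 units in TRAP and at 1822 and 1116 in input. Both were more than 4-fold lower in TRAP by their log2 means and narrowly missed the threshold (Aqp4 -2.24, SE 0.50, adjusted p = 0.0702; Slc4a4 -2.05, SE 0.39, adjusted p = 0.0541, both from limma). Over 11 alternatives of the limma fit Aqp4 passed in 5, with adjusted p from 0.0192 to 0.220, and Slc4a4 in 5, with adjusted p from 0.0116 to 0.210. A second Slc4a4 probe set (1452071_at) fell, with a difference of -3.15 (SE 0.53, adjusted p = 0.0442 from limma).

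Slc7a10, a transporter of small neutral amino acids including D-serine, was at 46.1 and 28.1 units in TRAP and at 142 and 175 in input. Both TRAP arrays were under 50 units, so it fell at least 3.15-fold (difference on the deposited values -2.13, SE 0.36, adjusted p = 0.0438 from limma). Mlc1, an endfoot membrane protein, and Atp1b2, a beta subunit of the sodium pump, were closer to input. Mlc1 was at 248 and 170 units in TRAP and at 333 and 384 in input (-0.80, SE 0.27), and Atp1b2 at 2121 and 1188 in TRAP and at 3104 and 3681 in input (-1.09, SE 0.41).

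The connexins Gja1 (connexin 43) and Gjb6 (connexin 30) build the gap junctions between astrocytes. Gja1 was at 6105 and 3466 units in TRAP and at 12773 and 15212 in input, a difference of -1.60 (SE 0.40, interval -3.10 to -0.10, adjusted p = 0.0841 from limma). Its 4 probe sets above background lay within a narrow range, from -1.96 to -1.53. Of these, 1437992_x_at (the one used), 1438945_x_at and 1438650_x_at have probes that may match other transcripts. Gjb6 was at 336 and 163 units in TRAP and at 936 and 607 in input, a difference of -1.69 (SE 0.57). Neither gene passed, and in both TRAP lay below input without overlap, beside 23.6% of all genes above background.

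Gfap, the intermediate filament of astrocytes, had the most negative difference of the 33 genes and a wide error. TRAP replicate 2 read 309 units and replicate 4 only 68.2, beside 824 and 1050 in input (-2.68, SE 1.02, interval -6.56 to 1.20). S100b, a calcium-binding protein also found in oligodendrocytes, was at 3486 and 1072 units in TRAP and at 5106 and 4334 in input (-1.28, SE 0.80). For both genes it is TRAP replicate 4 that was far from input, at 13.6-fold below the input mean for Gfap and 4.39-fold for S100b, whereas replicate 2 was 3.01-fold and 1.35-fold below it.

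Of the metabolic genes, Aldh1l1 makes tetrahydrofolate from its formyl form and is a widely used marker of astrocytes. It was dim, at 76.2 and 37.1 units in TRAP and at 77.4 and 169 in input, so that TRAP replicate 2 and input replicate 1 were almost level (-1.11, SE 0.71). Aldoc, the aldolase of brain glycolysis, was at 12363 and 7047 units in TRAP and at 13540 and 13978 in input (-0.56, SE 0.38). Its second, dimmer probe set gave -2.06, and the 2 therefore differ in size though not in sign.

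Acsbg1, which activates long-chain fatty acids, was at 67.0 and 39.8 units in TRAP and at 130 and 136 in input (-1.36, SE 0.35). Ppap2b, a lipid phosphatase, was at 589 and 364 units in TRAP and at 718 and 1983 in input (-1.37, SE 0.75), and its second probe set (1429514_at), with input arrays at 988 and 923 units, fell by 1.57 on the log2 scale (SE 0.12, adjusted p = 0.0104 from limma). Ndrg2, a protein of the NDRG family, was at 3597 and 2246 units in TRAP and at 4960 and 6665 in input (-1.02, SE 0.37). None of the 5 metabolic genes passed on its brightest probe set. In all 5 both TRAP arrays were below both input arrays, beside 23.6% of all genes above background, though barely so for Aldh1l1.

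The secreted proteins were the group closest to input, with a median difference of -0.31. Below input without overlap were 0 of 5 genes, beside 23.6% of all genes above background. Clu, the apolipoprotein clusterin, was at 18409 and 17429 units in TRAP and at 13898 and 15730 in input. Its difference of 0.28 (SE 0.09, adjusted p = 0.113 from limma) lies below the median of all genes, and it became negative after quantile normalization (-0.19) and after centring the arrays on bright probe sets (-0.13). All 4 of its probe sets were positive on the deposited values, and 1 of them (1437689_x_at, whose probes may match other transcripts) passed, at 0.40 (SE 0.07, adjusted p = 0.0447 from limma).

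Cst3, the protease inhibitor cystatin C, was at 11308 and 10970 units in TRAP and at 5735 and 8089 in input. The difference of 0.71 (SE 0.23, interval -0.17 to 1.58) did not pass with all 4 arrays, and it stayed positive, between 0.17 and 0.96, under all 11 alternatives. Apoe, the lipid carrier, was at 1219 and 902 units in TRAP and at 1175 and 3857 in input, so that the 2 input pools stood 3.28-fold apart and the fractions overlapped (-1.02, SE 0.82).

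Agt, angiotensinogen, had the same shape, at 290 and 220 units in TRAP and at 228 and 642 in input (-0.60, SE 0.72). Its sign depended on the array with 642 units, without which the difference was 0.15. Sparcl1 (hevin), a matrix protein that promotes synapse formation, was at 5133 and 3476 units in TRAP and at 6788 and 4047 in input (-0.31, SE 0.43), and the difference was 0.06 without input replicate 1.

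The surface receptors ran together. Fgfr3, a receptor for fibroblast growth factors, was at 257 and 142 units in TRAP and at 449 and 619 in input (-1.47, SE 0.45). Ntsr2, the neurotensin receptor of astrocytes, was at 894 and 375 units in TRAP and at 1208 and 1100 in input (-0.99, SE 0.59). F3, tissue factor, which starts coagulation, was at 237 and 89.4 units in TRAP and at 454 and 287 in input (-1.31, SE 0.72). In all 3 TRAP lay below input without overlap, beside 23.6% of all genes above background, and the test was not passed.

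The 5 transcription regulators all had a negative difference without overlap, beside 23.6% of all genes above background. Of the 5, 2 (Sox9 and Gli3) were under 50 units on both TRAP arrays. The median of the 5 was -2.41 on the deposited values and -1.51 with these 2 genes at their bound. Sox9, which specifies glia and stays on in astrocytes, was at 22.9 and 16.0 units in TRAP and at 97.3 and 116 in input. With both TRAP arrays under 50 units, it fell at least 2.12-fold (difference on the deposited values -2.47, SE 0.26, adjusted p = 0.0196 from limma). Its second probe set above background, also under 50 units on both TRAP arrays, fell at least 1.78-fold.

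Sox2, which neural stem cells share with astrocytes, read 1108 units in TRAP replicate 2 and 139 in replicate 4, beside 2560 and 1705 in input (-2.41, SE 1.42). Replicate 4 was thus 15.0-fold below the input mean and replicate 2 only 1.89-fold. Gli3, a mediator of Hedgehog signalling, was at 48.7 and 11.7 units in TRAP and at 130 and 132 in input, at least 2.62-fold above TRAP (difference on the deposited values -2.45, SE 0.95, not passed). Id3 and Id4 inhibit basic helix-loop-helix factors. Id3 was at 199 and 47.3 units in TRAP and at 321 and 320 in input (-1.72, SE 0.96), and Id4 at 2416 and 1287 in TRAP and at 5079 and 4978 in input (-1.51, SE 0.42).

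**Figure D2:**
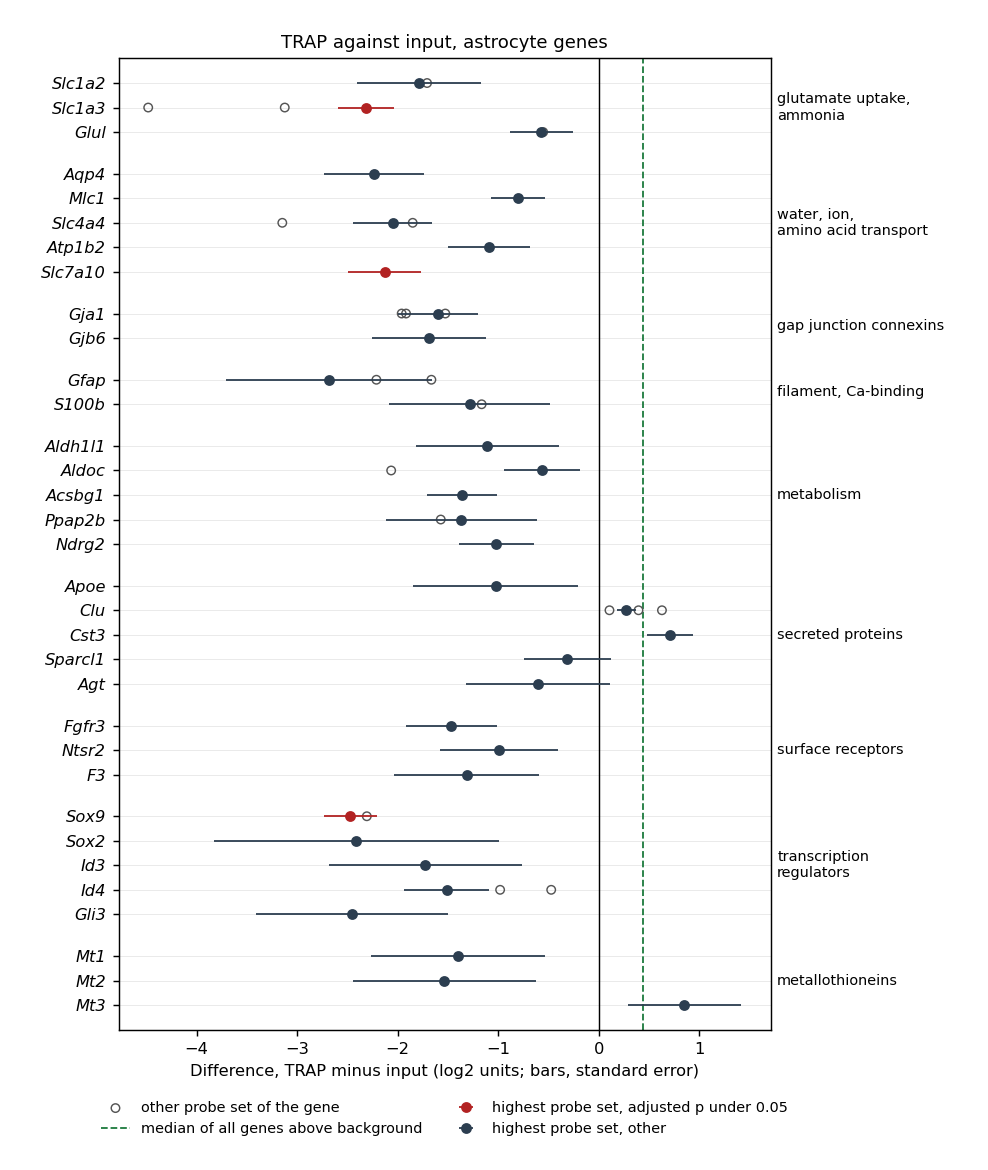
Difference of TRAP minus input (log2 units) for each astrocyte gene, grouped by role. Filled points are the probe set with the highest mean, with standard errors, in red where the adjusted p was under 0.05 (Slc1a3, Slc7a10 and Sox9); open circles are other probe sets above background, and the dashed line is the median of all genes, 0.44.

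Metallothioneins are small cysteine-rich proteins that bind zinc and copper. Mt1 and Mt2 are induced by metals through the factor MTF1, which binds the metal response element, and Mt3 is the brain form and is not induced that way. To show the 3 relatives side by side, the response element core (TGCACNC or TGCGCNC, read on both strands, 2 patterns that do not overlap each other) was looked for in the 250 bases before each start site in the RefSeq promoter table, build GRCm38.p6. The core is in capitals and is on the opposite strand in the third Mt2 site.

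Mt1, chr8:94179058-94179080: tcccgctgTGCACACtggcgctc

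Mt2, chr8:94172387-94172409: atcgcctcTGCACCCggcccctc

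Mt2, chr8:94172482-94172504: agacccttTGCGCTCagctcctt

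Mt2, chr8:94172560-94172582: gggagggcGTGTGCAggctctgt

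The letters are those of the plus strand, on which both genes lie. The Mt2 window holds 3 matches, the Mt1 window 1 and the Mt3 window 0, while 21.4% of 32851 windows hold at least 1 and 1.26% hold 3 or more. Among the windows of the astrocyte genes 7 of 35 hold a match (20%), those of Glul, Slc4a4, Slc7a10, Sox2 and Gli3 among them. A match is a description of letters and not a bound site. Bases farther upstream or past the annotated start were not read, so the counts are not those of all elements of a gene.

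Mt1 was at 5297 and 1470 units in TRAP and at 7698 and 7027 in input (-1.40, SE 0.86), on a probe set (1422557_s_at) whose probes may match more than 1 transcript. Mt2 was at 3872 and 994 units in TRAP and at 5473 and 5901 in input (-1.53, SE 0.91). Both were close to input on TRAP replicate 2, 1.39-fold and 1.47-fold below its mean, and far from it on replicate 4, 5.00-fold and 5.72-fold below. Mt3 was at 2482 and 1492 units in TRAP and at 763 and 1489 in input (0.85, SE 0.56, interval -1.28 to 2.98), so that TRAP replicate 4 and input replicate 2 were nearly equal. None of the 3 passed.

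Where a gene had several probe sets above background, they pointed one way. This held for 12 of 12 such genes. Of 53 astrocyte probe sets above background 47 were negative and 6 positive, and 6 fell and 1 rose by the test, beside 9.13% and 18.8% of all probe sets above background. Probe sets of a gene share its RNA and are not replicates. The probe sets used for Clu (1437458_x_at) and Gfap (1440142_s_at) also have probes that may match more than 1 transcript.

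The TRAP arrays differed from each other over the astrocyte genes. Of the 33, 32 were higher on replicate 2 and 1 on replicate 4. The median gap was 0.76 in log2, or 1.70-fold, while 48.1% of all genes above background were higher on replicate 2 and their median gap was 0.00. Replicate 2 exceeded replicate 4 by more than 2-fold for 11 astrocyte genes, beside 4.80% of all genes above background, and replicate 4 exceeded replicate 2 by as much for 0, beside 1.78%. Among genes with at least 1 TRAP array at 50 units or more, these were 10 of 30 astrocyte genes, beside 4.30% of all. These are values of 2 arrays, and no test was possible.

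Of the 11 genes, Gli3 was under 50 units on both TRAP arrays, so that its ratio has no place in the order. The others were Sox2 (7.96-fold), Gfap (4.53-fold), Id3 (4.20-fold), Mt2 (3.90-fold), Mt1 (3.60-fold), S100b (3.25-fold), F3 (2.65-fold), Ntsr2 (2.39-fold), Gjb6 (2.07-fold) and Aldh1l1 (2.05-fold). Gfap and S100b make up the filament and calcium-binding group, so that group exceeded 2-fold as a whole. Among the transcription regulators, Sox9 (1.43-fold, both TRAP arrays under 50 units) and Id4 (1.88-fold) stayed within 2-fold. So did Mt3 (1.66-fold) of the metallothioneins. The genes nearest to level between the TRAP arrays were Cst3 (1.03-fold) and Clu (1.06-fold), both of which were higher in TRAP than in input on every array.

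Against the input mean, the 33 genes had a median log2 difference of -0.69 for TRAP replicate 2 and -1.90 for replicate 4. The same 30 genes were below the input mean on both TRAP arrays, and Clu, Cst3 and Mt3 on neither. On these probe sets the size of the difference from the input mean thus depended on the TRAP array, and its sign did not. The signs of Sparcl1 and Agt did depend on the input arrays used.

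The input arrays differed in another set of genes. Input replicate 2 exceeded input replicate 1 by more than 2-fold for Apoe (3.28-fold), Agt (2.81-fold), Ppap2b (2.76-fold), Slc1a2 (2.48-fold) and Aldh1l1 (2.18-fold), and the reverse held for 0 of the 33. Over all genes above background these shares were 4.02% and 8.98%. Only Aldh1l1 was in both sets, and for the other 4 the TRAP arrays were within 2-fold of each other.

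**Figure D3:**
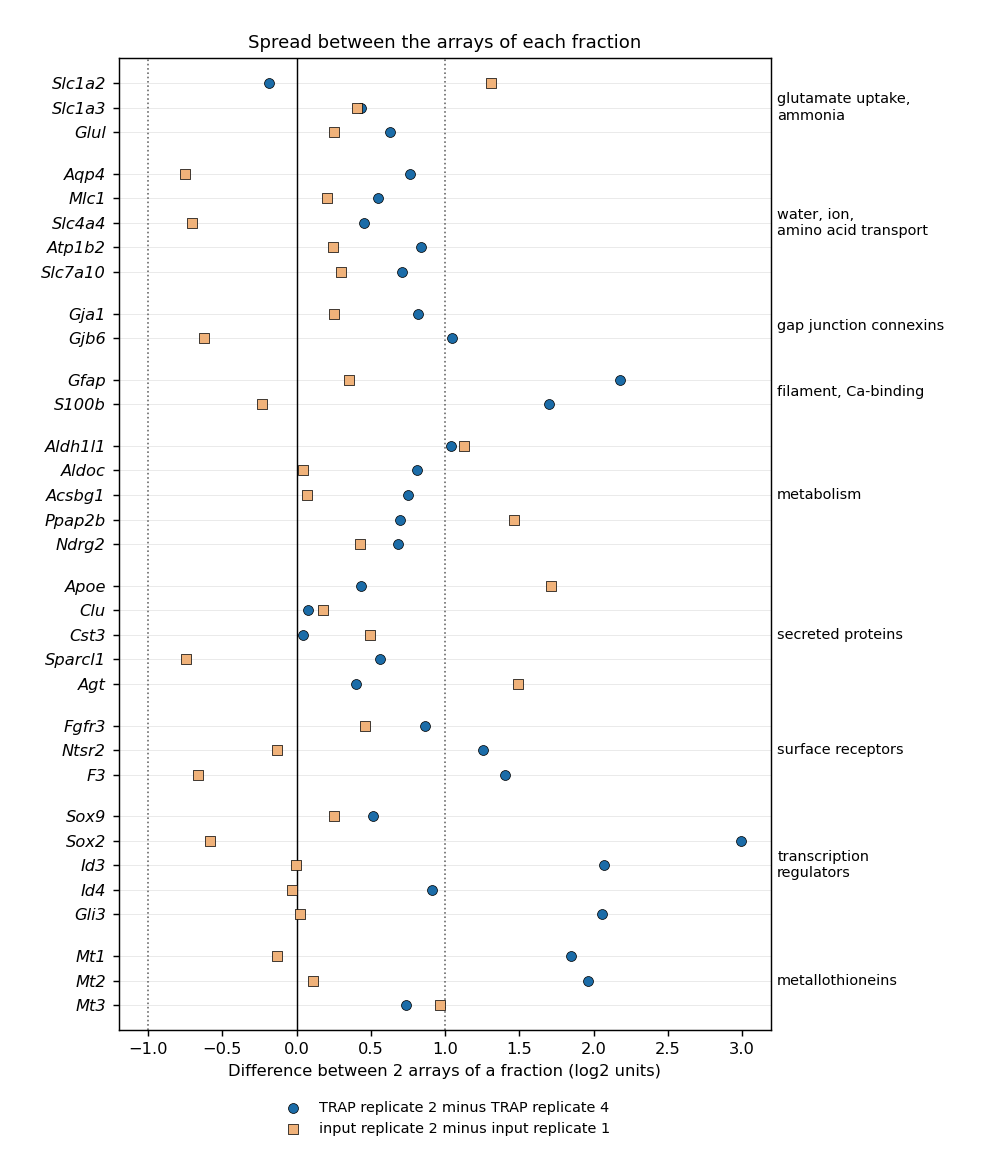
Difference between the 2 arrays of a fraction (log2 units) for each astrocyte gene: circles, TRAP replicate 2 minus replicate 4; squares, input replicate 2 minus replicate 1; dotted lines, 2-fold. Of the 33 circles, 32 lie right of 0 and 11 beyond 2-fold, with Sox2 farthest out, and 5 squares lie beyond 2-fold.

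A second list of 55 further genes of astrocytes was measured in full, and 44 of them were above background. Of these 41 had a negative difference, and the median was -1.66 (-1.59 with values under 50 units raised to 50). For 6 of the 44, both TRAP arrays were under 50 units, so that they counted as above background through input alone. The test was passed by 13, all lower, and by 0 that were higher, beside 6.87% and 18.7% of all genes above background. The 13 include all of these 6. At an unadjusted p under 0.05 from limma, 0 were higher as well. Left-out arrays moved the 13 to between 4 and 7, and with values under 50 units raised to 50 it was 2.

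The potassium channel Kcnj10 (Kir4.1), which lets astrocytes buffer extracellular potassium, was at 963 and 686 units in TRAP and at 3213 and 4255 in input (-2.19, SE 0.30, adjusted p = 0.0298 from limma). Its partner Kcnj16 read 41.8 units on both TRAP arrays and 197 and 329 in input, and fell at least 5.10-fold. Slc6a11, the GABA transporter GAT3, fell at least 2.96-fold. Gabrg1, a GABA-A receptor subunit, fell by 1.66 on the log2 scale (SE 0.18).

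Nfia, a nuclear factor that switches on astrocyte genes, was at 540 and 392 units in TRAP and at 3289 and 4171 in input (-3.01, SE 0.27, adjusted p = 0.0138 from limma). Among receptors, Notch1 fell by 2.23, Fgfr2 by 1.51 and Tril, which modulates Toll-like receptor signalling, by 2.21 on the log2 scale. The engulfment receptor Mertk fell at least 4.46-fold, Daam2, a formin of the Wnt pathway, at least 7.78-fold, Chrdl1, an antagonist of bone morphogenetic proteins, at least 1.38-fold and Egfr, the epidermal growth factor receptor, at least 1.35-fold. Kcnj16 and Egfr held identical values on the TRAP arrays, which narrows their error. Ezr, the membrane linker ezrin, read 109 units on both TRAP arrays and 129 on both input arrays, so that its p rests on no spread at all.

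Grin2c, an NMDA receptor subunit of astrocytes that some neurons share, ran against the list at 440 and 459 units in TRAP and at 88.6 and 187 in input (1.80, SE 0.50, adjusted p = 0.0867 from limma). It and Ptprz1 were singled out after their values were seen. Between the TRAP arrays the 44 genes had a median difference of 0.62, with 39 higher on replicate 2 and 2 higher on replicate 4, and 19 exceeded 2-fold toward replicate 2 and 1, the receptor phosphatase Ptprz1 (695 and 1431 units), toward replicate 4, beside 4.80% and 1.78% of all genes above background.

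Genes that astrocytes raise when they become reactive were mostly at the floor. Of 17 listed, 15 had a probe set and 5 reached background, with a median difference of -0.48, and 0 passed among these 5 (0 also at an unadjusted p under 0.05 from limma). The 5 were Stat3, a transcription factor of cytokine signalling, at 426 and 577 units in TRAP and 284 and 485 in input, the filament gene Vim at 212 and 99.9 against 351 and 182, the receptor gene S1pr3 at 222 and 141 against 159 and 291, the protease inhibitor Serpina3n at 112 and 65.5 against 181 and 78.9, and the adhesion receptor Cd44 at 27.9 and 12.7 against 68.5 and 65.2. The chaperone Hspb1 did not reach background, at 72.4 and 31.2 units in TRAP and 26.3 and 32.2 in input.

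Markers of other cells outside the tagged population moved with the astrocyte genes. The median difference was -1.23 for 14 of 15 oligodendrocyte markers, -1.28 for 4 of 5 oligodendrocyte precursor markers, -1.64 for 6 of 12 microglia markers, -1.81 for 6 of 10 endothelial and mural cell markers and -1.26 for 9 of 10 GABAergic neuron markers, counting those above background. The test was passed by 2, 1, 1, 1 and 1 of them, all lower, beside 6.87% of all genes above background, and such small counts set no list apart. Between the TRAP arrays these lists leaned toward replicate 2 as well, by medians of 1.40, 1.11, 1.06, 1.74 and 1.25 log2 units in the same order. The summed level of the oligodendrocyte markers was 86984 and 38253 units in TRAP and 107407 and 107985 in input, that of the microglia markers 2949 and 1336 in TRAP and 3512 and 4751 in input, and that of the endothelial and mural cell markers 942 and 255 in TRAP and 1920 and 1844 in input. The precursor markers summed to 10751 and 3327 units in TRAP and 13697 and 11851 in input, and the GABAergic markers to 11800 and 6598 in TRAP and 18257 and 10771 in input. The part of these cells in the astrocyte values was not tested, nor were the differences between the lists.

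The dopamine neuron markers and the pan-neuronal genes had positive medians, unlike the GABAergic list. The 16 pan-neuronal genes had a median difference of 0.74, with 4 negative and 0 that passed (by limma's unadjusted p under 0.05, 2 were higher and 0 lower), and the 14 dopamine neuron markers had 4.40. Next to the median of all genes, 0.44, the pan-neuronal median is 0.30 higher. Between the TRAP arrays the medians of these lists were -0.27 and -0.33, toward replicate 4. The summed level of the dopamine neuron markers was 181125 units for TRAP replicate 2 and 232500 for replicate 4. Of 5 ependymal markers 1 was above background, with a difference of 0.06.

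**Figure D4:**
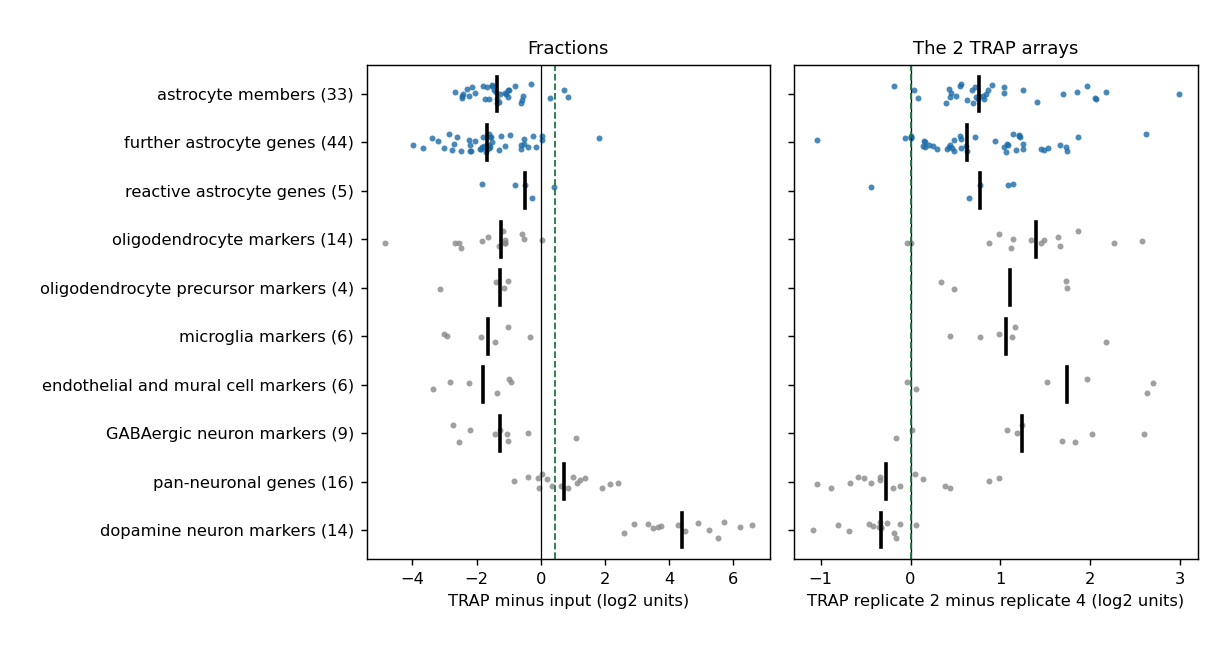
Left, difference of TRAP minus input, and right, TRAP replicate 2 minus TRAP replicate 4, both in log2 units, for genes above background (number in brackets). Points are genes, black bars list medians and the dashed lines the median of all genes (0.44 and 0.00); astrocyte genes have a median of -1.37 on the left and 0.76 on the right.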

How the data were processed

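RNA was amplified in 2 cycles from up to 10 ng and hybridized to Affymetrix mouse arrays. The authors processed the arrays with GCRMA (version not given in the sources used here), and the deposited values are log2 expression, 1 per probe set and array. Of 45101 probe sets, 64 controls were left out. Direction and scale follow from the labels and methods; no scanner files were used. No further normalization was applied.

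TRAP and input were compared with limma 3.58.1 in R 4.3.3 (fraction as the only coefficient, all 4 arrays, 2-sided). The prior had 0.317 degrees of freedom beside 2 residual ones, and 15551 probe sets held identical values within both fractions, 85 of them above background. Without any spread, 9920 of these probe sets passed the threshold. They share the Benjamini-Hochberg ranking with the astrocyte genes, whose adjusted p values depend on them. No astrocyte gene had identical values on the arrays of a fraction. The number of arrays limits the precision. An exact permutation test of 2 arrays against 2 cannot give a p below 0.333 and was not used. The fit passed all 14 dopamine neuron markers, whose median difference was 4.40. Many of these, Th and Ret among them, are in the list of enriched transcripts that the study drew from its own arrays. Their passing is therefore no measure of what the fit can find. Smaller differences could miss the threshold with 2 arrays a fraction, as Aqp4 did at -2.24 (SE 0.50). A gene that missed the threshold is therefore not shown to be unchanged.

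The 33 genes, the other lists and the background of 50 units were chosen with earlier results of these data known. All 33 genes are named, of the further and reactive astrocyte genes those that passed above background or up to 6 of the brightest, and other cell types by list. Alternatives were quantile normalization, centring on bright probe sets, a fit over probe sets above background, values raised to 50 units, a background of 100 units, an intensity trend, averaging the probe sets that share a gene, and each array left out.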

Additional observations from a re-analysis of the deposited data

How the results depend on the processing

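The median difference of the astrocyte genes kept its sign under all 11 alternatives, from -1.80 after quantile normalization to -1.22 after averaging the probe sets that share a gene, and from -1.90 to -0.69 with 1 array left out. Relative to the median of all genes, which quantile normalization moved from 0.44 to 0.05 and centring to 0.01, it was -1.80 on the deposited values, -1.85 and -1.79. The median difference between the TRAP arrays stayed between 0.69 and 0.82 wherever both were kept.

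Counts depended on the settings far more. Over all genes above background 688 were lower and 1868 higher on the deposited values, 1010 and 1228 after quantile normalization and 2191 and 2104 after centring. The 3 astrocyte genes that fell became 5 with quantile normalization (10.1% of all genes fell there), 16 with centring (21.8%), 8 with the fit over probe sets above background (9.17%), 6 with an intensity trend (9.76%) and 1 with values raised to 50 units (1.98%), and between 0 and 7 with 1 array left out (7 without TRAP replicate 2, beside 4.42% of all genes, 4 without TRAP replicate 4, beside 3.72%, 1 without input replicate 1, beside 6.13%, and 0 without input replicate 2, beside 6.05%, where it was 0 also at an unadjusted p under 0.05 from limma). With values raised, most probe sets have no spread by construction, and limma warns that its prior is then unreliable. None of the 3 was among those genes in any fit with 1 array left out. The 8 were Slc1a3, Slc7a10, Sox9, Aqp4, Slc4a4, Gja1, Acsbg1 and Id4. The count that rose was 0 in each fit to all 4 arrays, beside 4.44% (values raised to 50 units) to 25.6% (intensity trend) of all genes. That 0 did not extend to every fit with 1 array left out, where the difference of Cst3 was between 0.46 and 0.96. The 13 further astrocyte genes that fell became 28 with centring, 20 with the fit over probe sets above background and 2 with values raised. All genes fell there at 21.8%, 9.17% and 1.98%. With the fit over probe sets above background 1 further gene (Grin2c) rose, beside 22.7% of all genes.

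Of single genes, 3 changed sign: Clu to -0.19 with quantile normalization and -0.13 with centring, Sparcl1 to 0.0619 without input replicate 1 (from -0.68 over the left-out arrays) and Agt to 0.1457 without input replicate 2 (from -1.35). No paired analysis was possible because the fractions share only replicate number 2. Slc7a10, Sox9 and Gli3 have both TRAP arrays under 50 units, where the arrays give only a bound.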
